A study of Homo sapiens with 7 samples.

Results

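Clone 1 is a line grown from a single cell of the human pancreatic carcinoma line Panc1, an established line, after transfection with the plasmid pcDNA3.1/S100P-V5-His, which expresses S100P with a V5-His tag. It was set against the vector clones V3 and V1, also single-cell lines of Panc1, which carry pcDNA3.1/V5-His without S100P. The comparison took 5 of the 7 expression arrays of the study: arrays a and b of clone 1, arrays a and b of V3, and the 1 array of V1. V3 and V1 were given equal weight, and their average is called the vector mean. The other 2 arrays hold clone 5, another clone of the S100P plasmid, and were used for the estimate of the spread and where clone 1 is set against clone 5. All clones were kept in DMEM with fetal bovine serum and taken before full confluence. The study looked for genes regulated by S100P, and its title ties that gene to the passage of pancreatic cancer cells through endothelium.

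Each arm is made of single-cell clones, so a difference between clone 1 and the vector clones is a difference between these clones, and S100P, the site of plasmid insertion and the history of the founding cell cannot be told apart. V1 has 1 array, whose sample name carries another prefix than those of the other 6 arrays. Separate cultures for a and b are not stated in the labels. The p-values therefore cover only array-to-array spread, which may be technical. Every probe set apart from the array's own controls was compared, 54613 of 54675, and a gene was represented by its brightest probe set, which gave 19775 genes. Values of a gene are those of that probe set unless stated. Other probe sets of a gene did not always move with it, also where they are not mentioned.

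S100P belongs to the S100 family of small proteins that bind calcium, and it is made at high levels in many pancreatic tumours. It binds the receptor AGER outside the cell and cytoskeletal partners such as ezrin and IQGAP1 inside it, and it has been linked to migration and invasion. Genes of several stress and cell cycle programmes are grouped in lists below, and the activity of these programmes was not tested. Lack of amino acids or misfolded protein leads to translation of the transcription factor ATF4, which switches on genes of amino acid uptake, amino acid synthesis and tRNA charging through a C/EBP-ATF response element. AP-1 factors such as FOS, JUN, ATF3 and MAFF are early response genes that growth factors and stress induce within minutes. Genes of DNA replication are driven by E2F factors, and genes of mitosis are switched through the cell cycle genes homology region in their promoters.

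The promoters of genes that carry the stress, cell cycle and interferon results are shown first, since motifs of these programmes can be read in them. The sequences are those of RefSeq on GRCh38.p14, each 60 bases on the strand of the gene and upstream of its 5′-most listed start. The motif is in capitals. The C/EBP-ATF response element was searched as TGATGNAA on both strands in windows from 250 bases before to 50 after each start. It was present in 9 of 29 measured genes of the ATF4 list that matched a promoter (31.0%), in 6 of 14 tRNA synthetase genes, and in 3.61% of the 15384 measured genes with a promoter. The same share, 3.62%, was found over 35116 promoters. The windows lay at chr1:212565190-212565249 (+) for ATF3, chr15:40953236-40953295 (+) for CHAC1, chr7:97872443-97872502 (-) for ASNS and chr16:70289660-70289719 (-) for AARS1.
ATF3: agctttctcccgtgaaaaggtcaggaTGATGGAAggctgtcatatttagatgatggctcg
CHAC1: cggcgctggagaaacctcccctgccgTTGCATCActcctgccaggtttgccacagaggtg
ASNS: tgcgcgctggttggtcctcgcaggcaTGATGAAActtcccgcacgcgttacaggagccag
AARS1: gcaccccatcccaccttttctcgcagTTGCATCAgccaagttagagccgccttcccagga

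The cell cycle genes homology region was searched as TTTGAA and TTCGAA on both strands. It was present in 36 of 46 mitosis genes with a promoter (78.3%), in 3 of 47 replication genes and in 17.2% of all measured genes. E2F sites were searched as TTTCCCGC, TTTGGCGC, TTTCGCGC and TTTGCCGC on both strands. They were present in 25 of 47 replication genes (53.2%), in 4 of 46 mitosis genes and in 5.36% of all measured genes. The interferon-stimulated response element, searched as GAAA, any 2 bases and GAAA on both strands, was present in 21 of 29 genes of the type I interferon list (72.4%) and in 3.98% of all measured genes. A match describes the letters of a window and is not a measured binding site. The windows shown are those of SPC25 at chr2:168890621-168890680 (-), PLK1 at chr16:23678829-23678888 (+), CDC25A at chr3:48188428-48188487 (-), MCM3 at chr6:52284883-52284942 (-), IFITM1 at chr11:313975-314034 (+) and IFIT3 at chr10:89327850-89327909 (+).
SPC25: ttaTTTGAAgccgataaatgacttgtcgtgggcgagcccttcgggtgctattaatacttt
PLK1: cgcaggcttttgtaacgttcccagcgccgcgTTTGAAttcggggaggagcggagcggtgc
CDC25A: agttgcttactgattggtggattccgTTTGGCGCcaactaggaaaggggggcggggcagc
MCM3: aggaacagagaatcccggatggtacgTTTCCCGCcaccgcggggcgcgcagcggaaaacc
IFITM1: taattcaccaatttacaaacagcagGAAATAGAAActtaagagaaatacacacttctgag
IFIT3: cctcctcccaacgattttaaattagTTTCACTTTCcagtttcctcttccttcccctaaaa

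On each array 32.1% to 33.3% of values reached a log2 level of 6, and array medians lay between 4.51 and 4.58. Values below about that median are close to the floor of the array, so a fold taken against a gene at that level is open in size. Arrays a and b of clone 1 correlated at r = 0.998 over all probe sets. V1 correlated at 0.982 and 0.983 with the clone 1 arrays and at 0.989 and 0.990 with those of V3. The clone 1 arrays correlated at 0.988 to 0.990 with those of V3. For ACTB the 3′ minus the 5′ probe set, a measure of RNA quality, gave log2 differences of 0.53 and 0.44 in clone 1, 0.28 and 0.32 in V3 and 0.18 in V1. The clone 1 arrays were thus above all vector arrays on that measure (difference 0.23, exact two-sided permutation p = 0.1, the smallest that 2 against 3 arrays allow). For GAPDH the difference was 0.00 (exact permutation p = 1). The part of RNA quality in the results below was not tested. These are bulk RNA values, so fewer cells of a kind and less RNA per cell cannot be told apart.

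The single probe set of S100P did not set clone 1 apart from V3. Its values were 5.80 and 5.95 for clone 1 and 5.65 and 6.01 for V3, with V1 at 4.65. Clone 1 lay within the range of V3, and V1 was lowest. The limma fit gave a log2 difference of 0.64 (SE 0.12, adjusted p = 0.0164) from the vector mean, while an exact two-sided permutation test over the 5 arrays gave p = 0.7. Without V1 the difference was 0.045 (adjusted p = 0.919) and without V3 it was 1.23 (adjusted p = 0.0157), so it rested on V1. Whether this probe set reads the tagged transgene is not known, and directions below are those of the clone labelled clone 1.

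Clone 1 differed from the vector mean at 7012 probe sets (limma, Benjamini-Hochberg adjusted p under 0.05), 4511 higher and 2501 lower, which is 8.26% and 4.58% of all tested. By gene 2322 rose, 11.7% of all, and 1137 fell, 5.75%. At least 2-fold changes numbered 492 higher and 143 lower genes, and at least 4-fold changes 60 and 28. Since V3 and V1 differ from each other at 3195 probe sets, a gene was counted as clear of both vector clones only where it was called with the same sign against the vector mean, V3 alone and V1 alone. That held for 955 higher genes (4.83% of all) and 383 lower genes (1.94%), together 38.7% of the called genes. In 76 called genes clone 1 lay between V3 and V1. Of the 1338 clear genes, 797 were also called with the same sign in clone 5 against the vector mean, a comparison that shares the 3 vector arrays. Of all 19775 genes that comparison called 1118 higher and 581 lower. Against clone 5 itself 464 genes were higher in clone 1 (2.35%), and 0.673% were lower. Clear of V3, V1 and clone 5 at once were 298 higher (1.51%) and 71 lower genes (0.359%). The median over all genes was -0.02. The counts of the gene lists below are to be read against the 11.7% of all genes that rose and the 5.75% that fell. Of all 19775 genes 9765 reached a log2 level of 6 in clone 1. Lists differ in this, with 29 of 30 autophagy and lysosome genes at that level but 15 of 42 extracellular matrix genes. In a fit of the 17980 probe sets with a mean of at least 6, 7402 were called, 61.8% of them higher. A modest excess over all genes therefore does not set a list apart from other bright genes. The lists were chosen with earlier results of these data known, so a share above that of all genes describes a list and is no independent test of it. The shares of all genes given above do not apply to list counts with an array of clone 1 left out. Far fewer genes were called there over all, so a smaller list count, or a list without a call, does not by itself set the list apart. With either array of clone 1 left out the count of called probe sets was 772 (without a) or 914 (without b).

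The surface glycoprotein CD24, a ligand of selectins, had the largest rise among genes taken by their brightest probe set. It read 11.79 and 11.72 in clone 1, 7.10 and 7.03 in V3 and 6.42 in V1. The clone 1 arrays were far above all vector arrays, 32.3-fold above their mean (log2 difference 5.01, SE 0.09, adjusted p = 1.57e-06). All 6 CD24 probe sets rose, by 3.47 to 5.04, and some may pick up closely related transcripts as well. Clone 5 read 11.82 and 11.64, a difference of 0.03 from clone 1 (SE 0.10, adjusted p = 0.93). RAB27B, a GTPase that guides secretory vesicles and exosomes to the plasma membrane, read 10.62 and 10.46 in clone 1, 6.15 and 6.14 in V3 and 5.78 in V1. It rose 24.0-fold (4.58, SE 0.09, adjusted p = 1.68e-06), and clone 1 was also above clone 5, which read 9.33 and 9.28. KLHL13, which brings substrates to a cullin ubiquitin ligase in dividing cells, read 8.70 and 8.58 in clone 1, 4.45 and 4.78 in V3 and 3.96 in V1 (20.5-fold). Here the vector arrays were near the floor, and clone 1 differed from clone 5 by -0.02 (SE 0.15, not called).

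The forkhead repressor FOXP1 rose 10.5-fold at its brightest probe set, which read 8.06 and 8.01 in clone 1, 4.94 and 4.97 in V3 and 4.32 in V1. Of its 8 probe sets 3 were called. ATF3 and EGR1 rose 9.97-fold and 9.03-fold and are described with the early response genes. COL11A1, a fibrillar collagen chain that marks activated tumour stroma in patients, read 11.11 and 11.18 in clone 1, 8.92 and 8.91 in V3 and 7.04 in V1. All 3 of its probe sets rose, by 2.004 to 3.17. CD55, which protects cells from complement, read 10.17 and 10.02 in clone 1 against 6.96 to 7.22 on the vector arrays, 8.18-fold higher. The other genes among the 20 largest rises were FAM107B (9.66-fold), ARFGEF3 (8.41-fold), SLITRK6 (8.30-fold), the glucocorticoid-induced gene TSC22D3 (7.95-fold), the Wnt pathway modulator DACT2 (7.74-fold), CREB5 (7.24-fold), the scaffold SASH1 (7.14-fold), the GTPases ARL14 (7.05-fold) and RAB39B (6.67-fold), NAP1L5 (6.86-fold), IGFBPL1 (6.80-fold) and the lysosomal gene LAMP3 (6.68-fold). DACT2 and NAP1L5 had the largest errors, with SE 0.32 each. In DACT2 the vector arrays ran from 3.39 to 5.05, at or near the floor.

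The largest fall was in TMEM47, a tetraspan protein of cell junctions. It read 3.10 and 3.21 in clone 1, 8.66 and 8.96 in V3 and 7.58 in V1. Clone 1 was at the floor, and the fitted fold of 32.9 (log2 difference -5.04, SE 0.11, adjusted p = 3.16e-06) is open in size. Its other probe set fell by 2.46. DOCK4, an activator of Rac and Rap GTPases, read 3.77 and 3.89 in clone 1, 8.20 and 8.17 in V3 and 7.41 in V1. It fell by 3.97 (15.6-fold), but its other 3 probe sets were not called. CRACD, an inhibitor of actin capping, and EDIL3, a secreted ligand of integrins, both fell 12.4-fold. EDIL3 read 3.36 and 3.51 in clone 1 against 6.48 to 7.77 on the vector arrays. ABCG2, a drug efflux pump, read 4.63 and 4.21 in clone 1, 7.69 and 7.79 in V3 and 8.23 in V1 (11.8-fold lower).

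GLUL, which makes glutamine from glutamate, read 6.23 and 6.14 in clone 1, 9.12 and 9.24 in V3 and 9.54 in V1. It fell 9.03-fold (-3.17, SE 0.09, adjusted p = 9.07e-06), and 3 of its 4 probe sets fell. Both sides of this difference are well above the floor. OPN3, an opsin, fell 5.27-fold, and it read 8.15 and 8.07 in clone 1, 11.03 and 11.13 in V3 and 9.94 in V1. NES, the intermediate filament nestin, read 6.76 and 7.02 in clone 1 and 9.11 to 9.36 on the vector arrays (5.01-fold lower). The other NES probe set differed by -0.12 and was not called. The rest of the 20 largest falls were IFITM1, described with the interferon genes, the alkaline phosphatase ALPG (10.8-fold), which has near-identical relatives, the pentraxin PTX3 (8.51-fold), the Rac activator TIAM1 (7.37-fold), SCML1 (7.31-fold), ZNF512 (5.95-fold), the kynurenine pathway enzyme KMO (5.94-fold), the sialomucin PODXL (5.49-fold), the morphogen SHH (5.34-fold), MDFIC (5.16-fold), AMOTL1 (5.11-fold) and the protocadherin PCDH7 (4.86-fold). The other SHH probe set differed by -0.30 and was not called. No array of clone 1 overlapped a vector array in any of the 20 rises and 20 falls, which follows from how they were chosen.

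**Figure D1:**
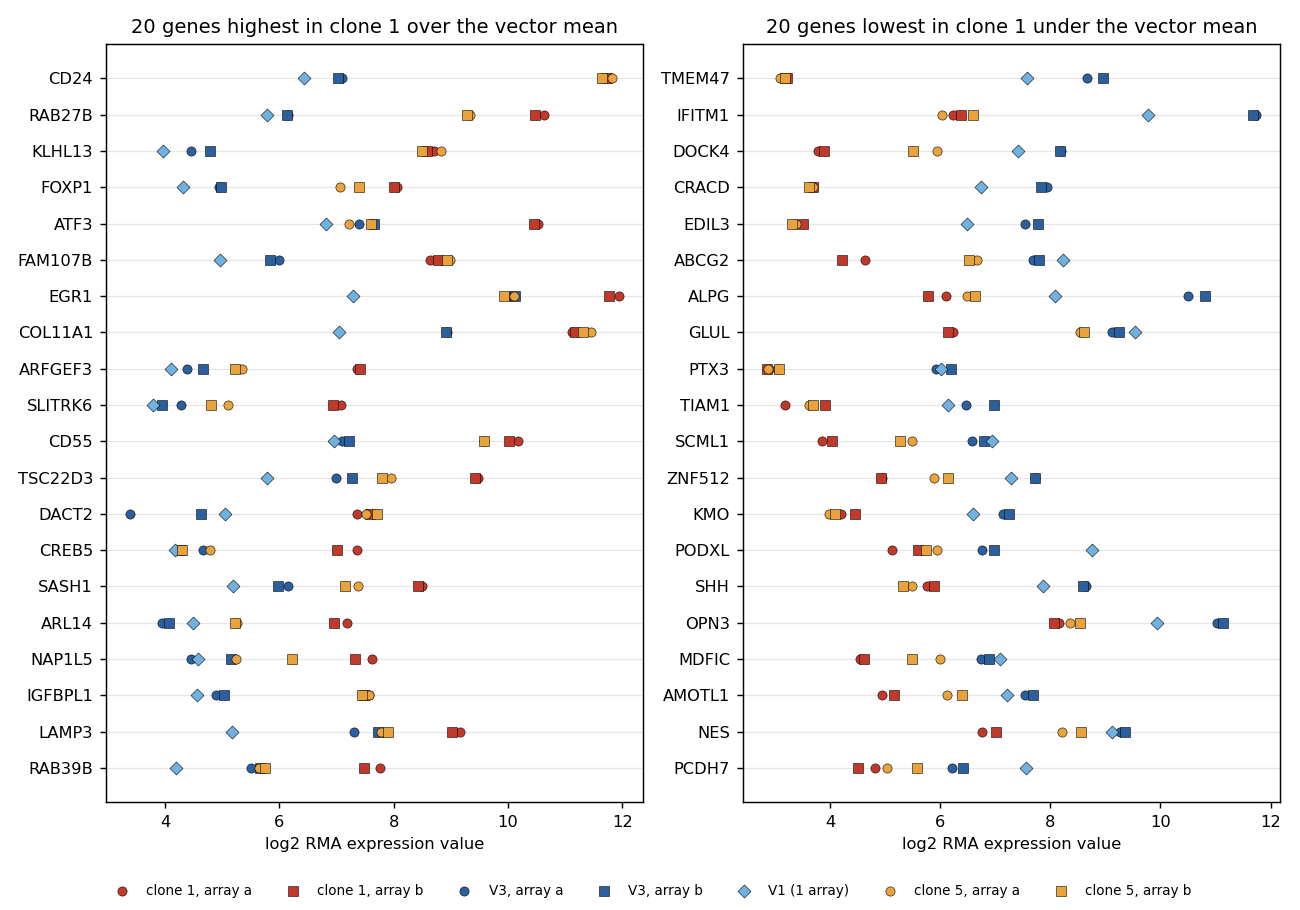
The 20 genes of largest rise and the 20 of largest fall in clone 1 against the vector mean, by their brightest probe set. Each point is the log2 value of 1 array (x axis), coloured by clone. The clone 1 points lie outside the V3 and V1 points in every row, and clone 5 points (CD24 11.82 and 11.64, ATF3 7.22 and 7.61) lie beside clone 1 in some rows and beside the vector clones in others.

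A difference larger than any given above was hidden by the choice of brightest probe set. COL1A1, the main chain of type I collagen, has 5 probe sets here, and the brightest changed by 0.43 (1.35-fold, adjusted p = 0.0281). Another read 10.55 and 10.46 in clone 1, 4.84 and 4.84 in V3 and 2.97 in V1, with clone 5 between at 7.41 and 7.46. Clone 1 was 97.3-fold above the vector mean there (6.60, SE 0.08, limma adjusted p = 4.30e-07) and 3.07 above clone 5 (adjusted p = 1.62e-04). The next probe set read 9.82 and 9.97 in clone 1, 4.63 and 4.74 in V3 and 3.97 in V1 (47.4-fold), with clone 5 at 5.82 and 6.75. The order clone 1, clone 5, V3, V1 was the same at both. The fourth rose by 1.67 from near the floor, and the last differed by 0.08 and was not called. Of the 14 fibroblast markers 3 were bright (log2 of at least 6) in clone 1, namely COL1A1 itself, FBLN1 at 8.53 and 8.61 and THY1 at 6.52 and 6.65. The other 11 were not, among them COL1A2 at 3.83 and 3.83, COL3A1 at 3.86 and 3.33 and LUM at 2.89 and 3.12. COL1A1 was singled out after its values were seen. The same search, for probe sets that moved by at least 3 while the brightest of their gene moved by under 1, gave 7 probe sets of 5 genes. The others were the RNA-binding protein RBM47 (11.6-fold higher), the actin nucleator FMN2 (10.98-fold and 9.53-fold higher), the phosphatase DUSP8 (8.01-fold higher) and the cadherin CDH11 (11.5-fold lower, with clone 1 at the floor). These differences kept their sign in each of the 14 or 15 alternative fits that held the probe set. The brightness filter left out all but the COL1A1 probe sets, and the gene median holds no single probe set.

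**Figure D2:**
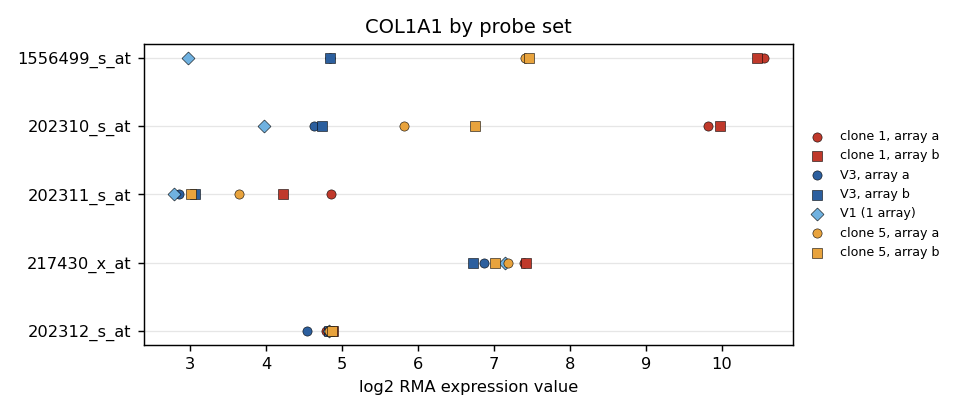
Log2 values of the 5 COL1A1 probe sets (rows) on the 7 arrays, coloured by clone. At the top 2 probe sets clone 1 lies near 10, clone 5 between 5.82 and 7.46 and the vector clones below 5, while the bottom 2 hardly separate the clones.

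Some of these genes set clone 1 apart from clone 5 as well. Among the 10 largest of that kind were the AP-1 or CREB family genes ATF3, CREB5 and MAFF and the zinc finger gene EGR1. Clone 1 exceeded clone 5 by 3.08 in ATF3 (SE 0.15, adjusted p = 9.6e-04), by 2.63 in CREB5 and by 2.20 in MAFF. CXCR4, the receptor of the chemokine CXCL12, read 6.02 and 6.25 in clone 1, 3.70 and 3.93 in V3, 4.34 in V1 and 4.12 and 4.07 in clone 5. All 3 of its probe sets rose in clone 1, and the other clones lay at the floor. EDN1, the vasoconstrictor peptide endothelin, read 9.84 and 9.72 in clone 1, 7.82 and 8.16 in V3, 8.16 in V1 and 7.94 and 7.82 in clone 5. It was 3.28-fold above the vector mean, and the other clones overlapped each other. ARFGEF3, SLITRK6, RAB39B and FILIP1L completed the 10, with differences of 1.88 to 2.10 from clone 5. Below clone 5 were GLUL by 2.39, with clone 5 at 8.53 and 8.61, ABCG2 by 2.17 and DOCK4 by 1.89. NES, SCML1, KRT19, AMOTL1, MDFIC, KRT8 and PIK3R1, the regulatory subunit of PI3 kinase, were lower as well, with clone 1 minus clone 5 differences from -1.5001 to -1.13. When 1 array of clone 1, clone 5 or V3 was dropped, no probe set was called between clone 1 and clone 5 by limma, with 4468 to 11537 at an unadjusted p under 0.05.

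**Figure D3:**
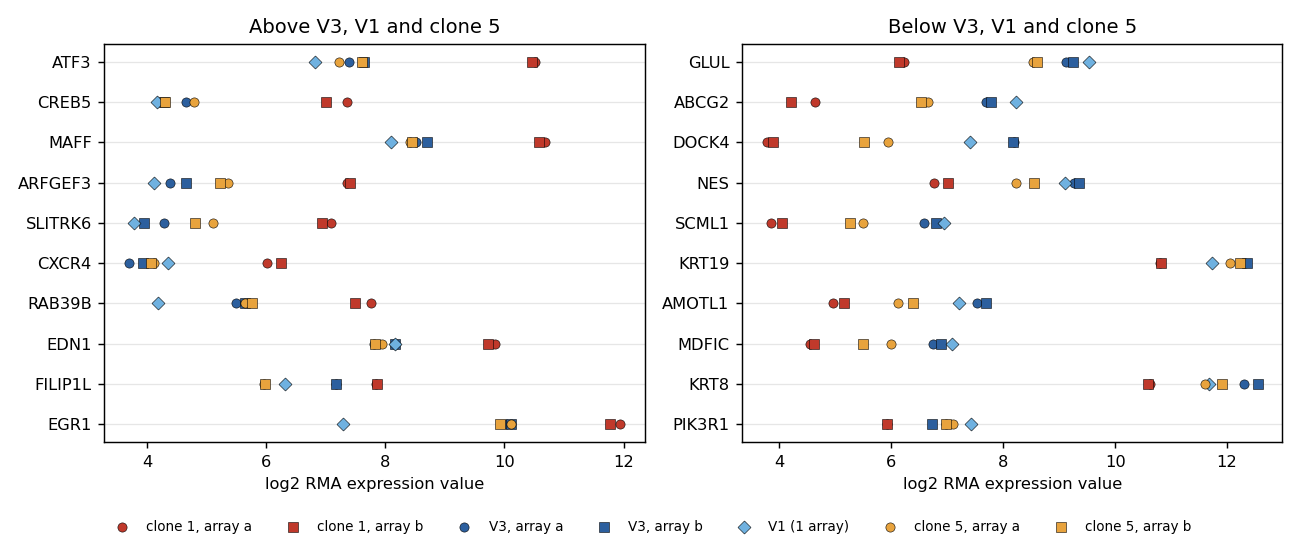
Log2 values by array for the 10 genes most above and the 10 most below clone 5 among those also clear of V3 and V1. In ATF3, MAFF, CXCR4 and EDN1 the clone 5 points lie among the vector points (ATF3 at 7.22 and 7.61 against 6.82 to 7.65), while in KRT19 clone 1 alone is low at 10.80 and 10.83.

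Early response and AP-1 genes rose together. Of 32 measured, 21 rose and none fell, where 11.7% of all genes rose, and 16 were clear of both vector clones (4.83% of all genes). The list's median difference was 0.78, beside -0.02 over all genes. It was 0.68 against V3 and 0.89 against V1. Above clone 5 were 18 members, where 2.35% of all genes were. In clone 5 against the vector mean 6 rose and 4 fell, beside 1118 and 581 of all 19775 genes. The list's median there was 0.05. With clone 1 array a or b left out, 10 rose in either case.

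ATF3, a stress-induced repressor of the family, read 10.52 and 10.46 in clone 1, 7.39 and 7.65 in V3 and 6.82 in V1 (3.32, SE 0.14, adjusted p = 3.89e-05). EGR1, a zinc finger factor downstream of ERK, read 11.94 and 11.77 in clone 1, 10.03 and 10.12 in V3 and 7.29 in V1. Clone 1 was 1.79 above V3 and 4.57 above V1, so the size of its 9.03-fold rise turned on V1. MAFF, a small MAF factor, read 10.68 and 10.58 in clone 1 against 8.09 to 8.71 on the vector arrays (4.84-fold). CREB5 read 7.35 and 7.005 against 4.17 to 4.66. FOS was carried by V1, with 7.63 and 7.56 in clone 1, 7.27 and 7.27 in V3 and 3.73 in V1, and it was not called against V3 (0.33). JUN rose by 1.61, KLF6 by 1.17, MCL1, an inhibitor of apoptosis, by 1.11, the mRNA decay factor ZFP36 by 1.07 and MYC by 0.80. The nuclear receptors NR4A1, NR4A2 and NR4A3, also early genes, were not called (0.08, -0.17 and -0.27). Among genes of ERK feedback 4 of 18 rose and 3 were clear, with a list median of 0.09. The phosphatase DUSP6, which removes ERK phosphates, read 9.21 and 9.12 in clone 1, 8.0004 and 8.29 in V3 and 7.10 in V1 (2.92-fold). SPRY2, an inhibitor of receptor signalling, rose 2.48-fold and DUSP5 2.11-fold, and clone 1 was above clone 5 in these 3. ETV5 rose by 0.42 and was not called against V3 (0.14).

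The ATF4 amino acid response list rose in 27 of 34 members and fell in none, with 16 clear of both vector clones. Its median difference was 0.96, but 0.38 against V3 and 1.43 against V1, and 0.36 for clone 5 against the vector mean. Against V3 alone 16 rose, where 1316 of all 19775 genes did. Above clone 5 were 17, where 2.35% of all genes were. Relative to the vector mean the list's median was 0.94 on both arrays of clone 1, 0.36 and 0.49 in V3, 0.31 and 0.45 in clone 5 and -0.44 in V1. V1 was thus the low array of this list, and V3 and clone 5 overlapped. With clone 1 array a or b left out, 13 and 15 rose.

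NUPR1, a small stress-induced chromatin protein, read 11.60 and 11.67 in clone 1, 10.73 and 10.92 in V3 and 8.001 in V1 (4.67-fold, adjusted p = 4.92e-05). CTH, which makes cysteine from cystathionine, read 8.60 and 8.53 in clone 1, 7.64 and 7.91 in V3 and 5.34 in V1 (4.02-fold). In both the step from V3 was under 1, at 0.81 and 0.79, and the step from V1 over 3. The mTORC1 inhibitors SESN2 and DDIT4 held against either vector clone. SESN2 read 9.94 and 10.08 in clone 1, 8.21 and 8.27 in V3 and 7.85 in V1, a 3.90-fold rise of which 1.77 stood against V3. DDIT4 read 11.83 and 11.92 in clone 1, 10.56 and 10.65 in V3 and 9.18 in V1 (3.96-fold). The pro-apoptotic factor DDIT3 rose by 1.83, its partner TRIB3 by 1.65, the glutathione-degrading enzyme CHAC1 by 1.41, asparagine synthetase ASNS by 1.33, the serine synthesis enzyme PHGDH by 1.33 and ATF4 itself by 0.74. SHMT2, SLC7A5, SLC1A5, VLDLR, XPOT, ALDH1L2 and ERO1A were not called, with differences of -0.08 to 0.57. Of the 24 called members with a promoter in RefSeq, 8 held the C/EBP-ATF response element printed above for ATF3, CHAC1 and ASNS.

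Cytosolic tRNA synthetases, which charge tRNAs with amino acids, rose in 11 of 17 cases and fell in 2, but only 2 rises and 1 fall were clear of both vector clones. The median was 0.41, with 0.21 against V3 and 0.69 against V1. SARS1 read 11.51 and 11.52 in clone 1, 11.05 and 11.18 in V3 and 10.36 in V1 (1.71-fold). Its difference from V3 was 0.40 and did not pass (adjusted p = 0.055). GARS1 was clear of both, 1.61-fold higher, with 12.66 and 12.73 in clone 1 and 11.80 to 12.31 on the vector arrays. CARS1 and AARS1 rose 1.70-fold and 1.69-fold and were not called against V3. FARSA, a subunit of the phenylalanine enzyme, fell 1.75-fold, from 8.18, 8.16 and 8.74 on the vector arrays to 7.64 and 7.65. All 6 synthetase genes with the element rose. With either array of clone 1 left out none of the list was called, where far fewer of all genes were called too.

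Of 26 chaperones and degradation genes of the unfolded protein response 6 rose (23.1%), 2 fell and the median was 0.06. The sensor ERN1 read 8.31 and 8.22 in clone 1, 6.68 and 6.97 in V3 and 5.96 in V1, 3.67-fold higher, and 1.23 above clone 5. HERPUD1, of endoplasmic reticulum degradation, read 10.29 and 10.24 in clone 1 against 8.71 to 9.45 (2.36-fold), although its other probe set differed by 0.04. DNAJB9 and the sensor ATF6 rose 1.52-fold and 1.503-fold and were clear as well. The co-chaperone SDF2L1 fell 1.42-fold and was not called against V3. Of 26 amino acid transporters, a list that shares SLC7A11, SLC3A2 and other members with the ATF4 list, 6 rose and 1 fell, with a median of -0.02. SLC7A11, the cystine importer, read 9.31 and 9.24 in clone 1, 8.46 and 8.45 in V3 and 7.41 in V1 (2.54-fold), and SLC38A2 and SLC3A2 rose 1.73-fold and 1.63-fold. SLC1A4 and SLC7A1 rose 1.87-fold and 1.43-fold and were not called against V3.

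Genes of mitosis fell. Of 52 measured, 45 fell and none rose, where 5.75% of all genes fell, and 19 were clear of both vector clones (1.94% of all). The median difference was -0.65, with -0.35 against V3 and -0.93 against V1, and -0.33 for clone 5 against the vector mean. Relative to the vector mean the list's median was -0.61 and -0.67 in clone 1, -0.44 and -0.24 in V3, -0.30 and -0.36 in clone 5 and 0.32 in V1. V1 was the high array of this list. Below clone 5 were 8 members, where 0.673% of all genes were. With clone 1 array a or b left out, 6 and 4 fell.

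The kinetochore gene SPC25 read 7.30 and 7.17 in clone 1, 7.998 and 8.22 in V3 and 8.86 in V1 (2.38-fold lower, adjusted p = 0.00185). KIF20A, a kinesin of cell cleavage, read 8.05 and 8.02 in clone 1, 8.55 and 8.77 in V3 and 9.47 in V1, and it was also 0.84 below clone 5. The arrays of clone 1 lay below all others in both. SGO2, a guardian of centromere cohesion, fell 2.16-fold, and V3 and V1 overlapped there (9.54, 9.14 and 9.46). ASPM, of the spindle poles, fell 2.07-fold at 3 of 3 probe sets. The kinase PLK1 fell 2.13-fold, with 8.25 and 8.36 in clone 1, 8.74 and 8.86 in V3 and 9.99 in V1, and was not called against V3 (adjusted p = 0.077). The proliferation marker MKI67 fell by 0.94, the kinase AURKA by 0.93, cyclin B1 (CCNB1) by 0.84 and topoisomerase TOP2A by 0.64. The element printed above for SPC25 and PLK1 was present in 30 of the 40 members that fell and had a promoter, beside 78.3% of the list.

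DNA replication and G1/S genes fell too, with 43 of 54 lower, none higher and 19 clear. Their median was -0.63, with -0.39 against V3, -0.98 against V1 and -0.39 for clone 5 against the vector mean. CDC25A, the phosphatase that starts S phase, read 6.005 and 5.89 in clone 1, 6.81 and 6.95 in V3 and 7.70 in V1. It fell 2.54-fold (-1.34, SE 0.09, adjusted p = 2.66e-04) at 3 of 3 probe sets and was 0.84 below clone 5. MCM3, of the replicative helicase, read 8.91 and 8.96 in clone 1, 9.58 and 9.70 in V3 and 10.55 in V1 (2.24-fold lower). Clone 1 was lowest and V1 highest in both. The origin gene ORC1 fell 2.62-fold, the licensing factor CDC6 2.23-fold and the flap nuclease FEN1 2.24-fold. PCNA fell by 0.80, and E2F1 by 0.46. Of the 38 members that fell and had a promoter, 21 held an E2F site, beside 53.2% of the list. With clone 1 array a or b left out, 4 and 5 members fell. Below clone 5 were 6, where 0.673% of all genes were.

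The inhibitors of cyclin-dependent kinases went the other way, with 3 of 6 higher and all 3 clear. CDKN1C, the imprinted inhibitor p57, read 8.51 and 8.57 in clone 1, 7.13 and 7.02 in V3 and 4.77 in V1. It rose 6.12-fold, was 1.46 above V3 and 3.77 above V1, and rose at 4 of 5 probe sets. CDKN1B rose 2.24-fold, with 9.67 and 9.59 in clone 1 and 8.12 to 8.96 on the vector arrays. CDKN1A, the p53 target p21, read 8.90 and 8.94 in clone 1, 8.10 and 8.33 in V3 and 8.25 in V1 (1.61-fold). V1 lay within the range of V3 in CDKN1A. Of 24 p53 targets 8 rose (33.3%) and 3 fell (12.5%), with a median of 0.24. GADD45A, a DNA damage and stress gene, read 11.24 and 11.27 in clone 1, 9.30 and 9.40 in V3, 9.53 in V1 and 9.42 on average in clone 5. It was 3.52-fold above the vector mean and 1.83 above clone 5, with the other clones close together. The death receptor TNFRSF10B and the AKT inhibitor PHLDA3 rose 2.22-fold and 1.92-fold, while the cytokine GDF15 rose 2.31-fold but not against V3 (0.33).

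Clustered histone genes rose in 12 of 14 cases, 10 of them clear. The median was 0.94, with 0.81 against V3, 1.05 against V1 and 0.92 for clone 5 against the vector mean. On the arrays the list's median relative to the vector mean was 0.98 and 0.89 in clone 1, 0.91 and 0.96 in clone 5, 0.17 and 0.15 in V3 and -0.17 in V1. Clone 1 and clone 5 overlapped, and 1 member was above clone 5, where 2.35% of all genes were. H2BC21 read 7.65 and 7.61 in clone 1, 5.16 and 5.62 in V3 and 4.41 in V1 (6.65-fold). H2AC6 read 9.28 and 9.35 in clone 1, 7.65 and 7.99 in V3 and 6.69 in V1 (4.17-fold). H2BC5, the linker histone H1-2 and H2BC4 rose 2.94-fold, 2.41-fold and 2.27-fold. Histone genes of one class are near identical, so these probe sets may share signal, and most replication-dependent histone mRNAs lack the poly(A) tail that array labelling uses. With either array of clone 1 left out 5 rose.

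**Figure D4:**
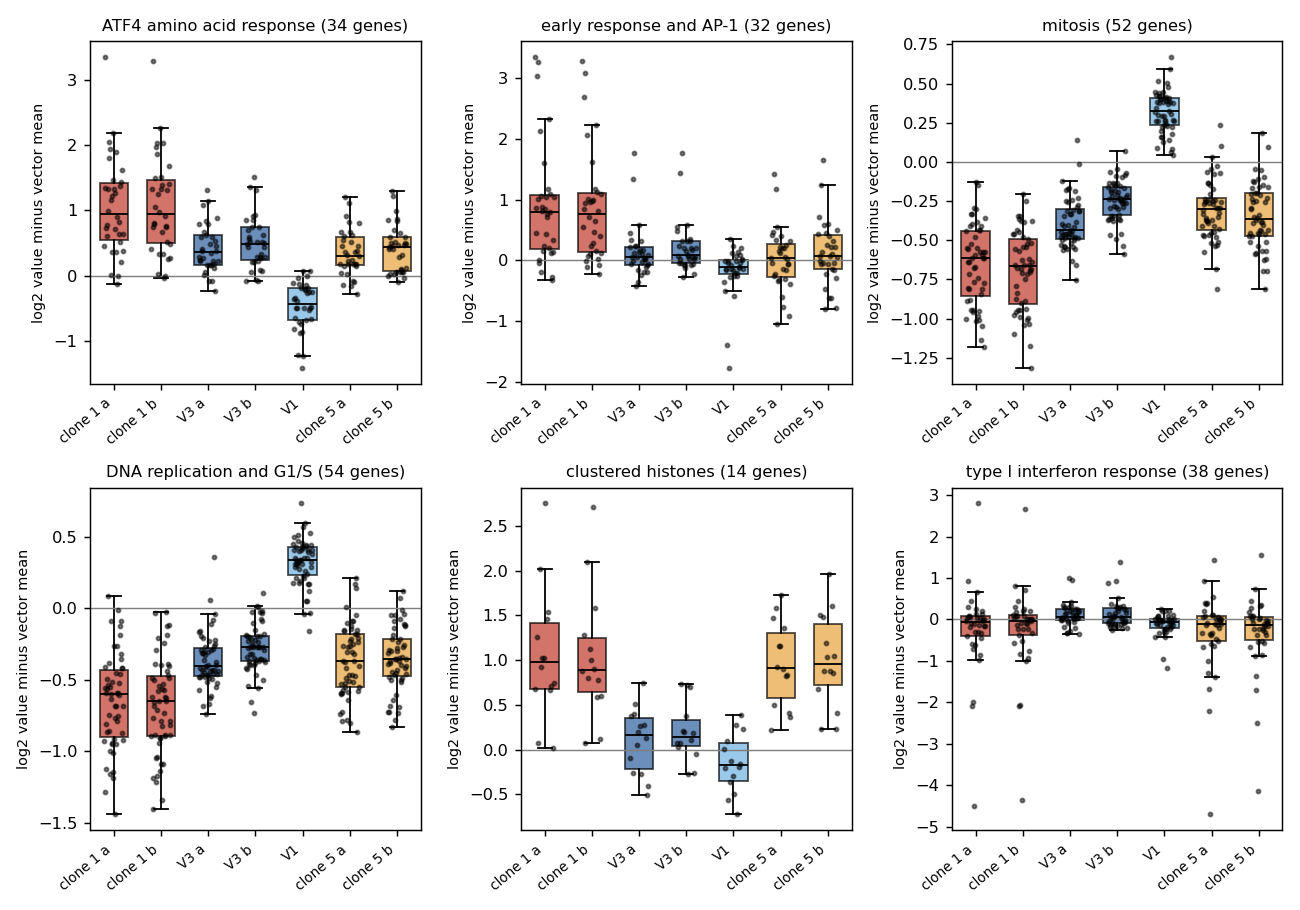
Members of 6 gene lists on each array, as log2 value minus the vector mean of that gene (y axis); boxes span the quartiles with the median as a line, whiskers reach the last member within 1.5 box lengths, and dots are genes. Clone 1 stands apart from clone 5 in early response genes (median 0.80 and 0.76 against 0.04 and 0.08), overlaps it in histones, and V1 lies opposite to clone 1 in the ATF4, mitosis and replication lists.

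Of 38 type I interferon genes 9 fell (23.7%, against 5.75% of all genes), 6 of them clear. The 5 that rose (13.2%, 2 clear) are a share near the 11.7% of all genes, and the median was -0.06. IFITM1, which blocks entry of viruses at membranes, read 6.23 and 6.37 in clone 1, 11.73 and 11.68 in V3, 9.78 in V1 and 6.04 and 6.60 in clone 5. It fell 21.7-fold (-4.44, SE 0.16, adjusted p = 2.35e-05), and clone 1 and clone 5 overlapped. IFIT3 read 5.57 and 5.50 in clone 1 and 7.53 to 7.64 on the vector arrays (4.06-fold lower), and IFIT1 fell 4.26-fold and was 0.91 below clone 5 as well. MX2 fell 1.97-fold, OAS3 by 0.90 and IFIT2 by 0.77. LAMP3, a lysosomal protein that interferon and other stresses induce, went up 6.68-fold, from 7.31 and 7.73 in V3 and 5.17 in V1 to 9.15 and 9.02. HERC5, ISG20, IFI6 and EIF2AK2 rose by 0.31 to 0.87. ISG15, MX1, OAS1, IRF7 and IRF9 were among the 24 not called, with 0.07, -0.19, -0.13, 0.16 and 0.25. The interferon-stimulated response element was present in all 10 called members with a promoter. These include IFITM1 and IFIT3, which fell, and HERC5, ISG20, IFI6 and EIF2AK2, which rose. Over the whole list, called or not, 21 of 29 held it.

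Of 15 genes of MHC class I presentation 4 fell and none rose, and the median was -0.21. PSMB9, an immunoproteasome subunit, read 7.29 and 7.08 in clone 1, 8.59 and 8.78 in V3 and 7.97 in V1 (2.21-fold lower). PSMB8 fell 1.75-fold, the peptide transporter TAP2 1.58-fold and PSMB10 1.38-fold, the last not called against V3. Among NF-kB targets and cytokines 4 of 28 fell and 2 rose, with a median of -0.06. The neutrophil chemokine CXCL1 read 4.91 and 5.13 in clone 1, 6.65 and 7.17 in V3 and 6.55 in V1 (3.27-fold lower). TNFAIP2 fell 2.47-fold, with 8.57 and 8.58 against 9.79 to 9.93. CXCL8 fell 2.97-fold and the adhesion receptor ICAM1 1.61-fold, the former not called against V3 and the latter not against V1. LIF, a cytokine of the IL6 family, read 9.43 and 9.45 in clone 1, 8.56 and 8.63 in V3 and 8.36 in V1 (1.95-fold higher).

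Of 19 genes of sterol synthesis 9 rose (47.4%, against 11.7% of all genes) and none fell, but 3 were clear, with a median of 0.32 (0.16 against V3). MVD, which makes isopentenyl diphosphate, read 7.42 and 7.29 in clone 1, 6.28 and 6.31 in V3 and 6.28 in V1 (2.10-fold), and its difference from clone 5 was 0.12, not called. STARD4, a sterol carrier, rose 1.59-fold, and HMGCS1 and MSMO1 rose 1.53-fold and 1.48-fold without a call against V3. TM7SF2, a sterol reductase, rose 1.94-fold against the mean, yet clone 1 (9.05 and 9.10) was below V3 (9.23 and 9.45) and above V1 (6.90). With either array of clone 1 left out none of the sterol list was called, where far fewer of all genes were called too. In fatty acid synthesis 5 of 13 rose (38.5%), 4 clear, and 1 with either array of clone 1 left out. SREBF1, the master transcription factor, read 8.88 and 8.92 in clone 1, 8.27 and 8.23 in V3 and 7.97 in V1 (1.73-fold). The other SREBF1 probe set differed by 0.12 and was not called. The desaturase SCD rose 1.53-fold at 4 of 4 probe sets. MID1IP1 and ACSS2 rose 1.74-fold and 1.71-fold. ME1 rose 1.34-fold and was not called against V3.

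In glycolysis and hypoxia 5 of 34 rose (14.7%) and 1 fell (2.94%), with a median of 0.05. The peptide adrenomedullin (ADM) read 13.12 and 13.12 in clone 1, 11.999 and 12.12 in V3 and 11.60 in V1 (2.44-fold), and was 1.02 above clone 5. VEGFA, the endothelial growth factor, read 10.75 and 10.65 in clone 1, 10.05 and 9.84 in V3 and 8.60 in V1, 2.68-fold higher at the brightest of 4 called probe sets. ENO2 and P4HA2 rose 1.95-fold and 1.92-fold, and the pyruvate kinase PKM fell 1.46-fold without a call against V3. Of 22 NRF2 targets 3 rose (13.6%, near the 11.7% of all genes) and 3 fell (13.6%, against 5.75%), with a median of -0.20. The drug exporter ABCC3 rose 2.54-fold, GCLM, of glutathione synthesis, fell 1.70-fold, and NQO1 fell 1.39-fold without a call against either vector clone alone. Of 30 autophagy and lysosome genes 8 rose (26.7%) and 4 fell (13.3%; median 0.18). MAP1LC3B, of autophagosome membranes, read 11.24 and 11.23 in clone 1 against 10.05 to 10.37 (2.06-fold), GABARAPL1 rose 2.33-fold and the kinase ULK1 1.91-fold. The lysosomal hydrolase GLA fell 1.86-fold. NEU1, a sialidase, read 9.05 and 9.12 in clone 1, 10.72 and 10.86 in V3 and 8.97 in V1, so its fall rested on V3. Of 18 heat shock chaperones 2 rose (11.1%, against 11.7% of all genes) and 4 fell (22.2%, against 5.75%), with a median of -0.20. The small chaperone HSPB8 rose 2.15-fold, DNAJA1 fell 1.39-fold, and both were clear of the vector clones. HSPB1, HSPA4L and HSPA1L moved by 0.45 to 0.51 in size, each short of a call against V3 or V1.

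Markers of the epithelial label were mixed. KRT18, an epithelial keratin, read 12.55 and 12.60 in clone 1, 13.25 to 13.68 on the vector arrays and 13.29 and 13.25 in clone 5. Of the 34 epithelial junction markers measured 20 were bright in clone 1. The epithelial regulators GRHL2 (3.05 and 3.05), ESRP1 (3.92 and 3.81) and RAB25 (3.32 and 3.56) were near the floor there, and E-cadherin was near it in V1. KRT8, the filament partner of KRT18, read 10.63 and 10.59 in clone 1, 12.30 and 12.55 in V3 and 11.68 in V1 and fell 2.72-fold. KRT19, a ductal keratin, read 10.80 and 10.83 in clone 1, 12.33 and 12.36 in V3 and 11.74 in V1 (2.34-fold lower). The other KRT19 probe set differed by -0.20 and was not called. KRT7 fell 1.96-fold at 1 of 4 probe sets. Clone 1 was below every other array in KRT8, KRT18 and KRT19, clone 5 included. EPCAM read 9.37 and 9.34 in clone 1 against 8.88 to 9.36 and was not called (0.28, adjusted p = 0.0994).

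Of 34 epithelial junction markers 8 rose (23.5%) and 6 fell (17.6%), 5 each clear, and the median was 0.06. E-cadherin (CDH1) read 7.79 and 7.66 in clone 1, 6.17 and 6.36 in V3 and 3.83 in V1. It rose 6.40-fold, with 1.46 against V3 and 3.89 against V1. The other CDH1 probe set differed by 0.31 and was not called. The desmosomal cadherin DSC2 read 8.86 and 8.82 in clone 1 against 5.90 to 6.42 (6.45-fold), and DSG2 read 9.07 and 8.98 against 7.17 to 7.44 (3.32-fold). The tight junction gene CLDN1 read 9.32 and 9.19 in clone 1, 7.74 and 8.06 in V3 and 8.08 in V1 (2.40-fold). DSC2, DSG2 and CLDN1 were above clone 5 too, by 0.55, 1.01 and 1.00. Of 27 mesenchymal markers and EMT factors 3 rose (11.1%) and 3 fell (11.1%), with a median of 0.07 and 1 of them clear. CDH11, a mesenchymal cadherin, fell by 0.87 at its brightest probe set, SPARC fell 1.48-fold without a call against V1, and AXL and ITGA5 rose 1.37-fold each without a call against V3. Vimentin (VIM) read 13.60 and 13.62 in clone 1 and 13.40 to 13.63 on the vector arrays, and was not called.

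Of 22 pancreatic transcription factors and ductal markers 2 rose and 5 fell. SOX9, of ductal identity, read 11.29 and 11.39 in clone 1, 9.96 and 10.32 in V3 and 10.68 in V1 (1.91-fold), and the Notch target HES1 rose 1.80-fold. Carbonic anhydrase CA2 fell 2.53-fold without a call against V3. None of 12 acinar markers was called, and the list's median level was 4.21 and 4.36 in clone 1 and 4.32 to 4.37 on the vector arrays. The largest acinar differences were -0.23 in CPB1 and -0.22 in GP2. Of 20 endocrine and neuroendocrine genes 3 rose and 3 fell (15% each, against 11.7% and 5.75% of all genes). The granin CHGB read 5.72 and 5.88 in clone 1, 5.05 and 5.06 in V3 and 4.32 in V1 (2.16-fold). SCG2 and the neuropeptides NTS and GAL fell 1.90-fold, 2.18-fold and 2.28-fold but none against both vector clones, as V3 was high for SCG2 and NTS and V1 for GAL. Of 14 fibroblast markers COL1A1 and FBLN1 rose by 0.43 and 0.47, and the list's median level was 3.84 and 3.77 in clone 1. Of 12 leukocyte markers only ITGB2 was called, 1.27-fold lower at a level of 4.42 and 4.36. Of 12 endothelial markers none was called, and VWF and ENG differed by -0.23 and -0.22.

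The study's title concerns passage through endothelium. Of 35 genes of adhesion and transendothelial migration 6 rose (17.1%) and 3 fell (8.57%), 5 and 2 of them clear, with a median of 0.03. Besides CD24 and CXCR4, the immunoglobulin adhesion molecule ALCAM read 9.11 and 9.10 in clone 1, 7.31 and 7.53 in V3 and 8.05 in V1 (2.59-fold). LSAMP, of the IgLON family, read 6.68 and 6.42 in clone 1 against 4.46 to 4.74 (3.93-fold) and was called at 5 of 6 probe sets. PODXL read 5.12 and 5.60 in clone 1, 6.76 and 6.97 in V3 and 8.77 in V1. The differences from clone 5 were 0.03 in CD24, -0.01 in LSAMP and 0.30 in ALCAM, none called, and CXCR4 was the 1 member of the list called above clone 5. Of 23 integrins ITGA5 rose 1.37-fold and ITGB2 fell, and neither was clear.

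Of 35 extracellular proteases and inhibitors 4 rose (11.4%) and 1 fell (2.86%), near or below the 11.7% and 5.75% of all genes (median -0.01). The urokinase PLAU read 11.81 and 11.88 in clone 1, 11.23 and 11.30 in V3 and 11.15 in V1 (1.56-fold), and the membrane protease MMP16 fell 1.98-fold. The sheddase ADAM17 and the inhibitors TIMP2 and RECK rose 1.48-fold, 1.56-fold and 1.41-fold without a call against V3. Of 42 extracellular matrix genes 7 rose (16.7%) and 5 fell (11.9%; median -0.03). Besides COL11A1 and EDIL3, COL4A5, of basement membranes, rose 3.38-fold and was 0.70 below clone 5. The other COL4A5 probe set differed by 0.07 and was not called. The laminin LAMA4 fell 1.79-fold, and NID1 rose 1.63-fold without a call against V3. Of 38 actin regulators 7 fell (18.4%, against 5.75% of all genes), and the 4 that rose (10.5%) are a share near the 11.7% of all genes (median -0.11). PALLD, a scaffold of stress fibres, read 7.04 and 6.96 in clone 1 against 4.95 to 5.25 (3.85-fold). MYLK, the myosin light chain kinase, read 8.03 and 7.996 in clone 1, 9.14 and 9.28 in V3 and 8.92 in V1 (2.07-fold lower), while clone 5 was lower still by 1.33. Of the 5 MYLK probe sets 1 was called. PPP1R9A fell 3.59-fold at 1 of 4 probe sets, and CNN3 fell 1.52-fold without a call against V1.

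Signalling lists held single genes of large change. Of 30 TGF-beta and BMP targets 7 rose (23.3%) and 4 fell (13.3%), with a median of 0.08. Above clone 5 were 8 and below it 1, where 2.35% and 0.673% of all genes were. CCN2, the connective tissue growth factor, read 12.29 and 12.26 in clone 1, 11.01 and 11.12 in V3, 10.65 in V1 and 10.76 on average in clone 5 (2.67-fold). ID3, a BMP target, read 9.21 and 9.07 in clone 1, 5.94 and 6.27 in V3 and 7.93 in V1. Clone 1 was above all other arrays in both, and in ID3 the vector clones lay far apart. The receptor TGFBR2 rose 1.72-fold, TGFBR3 fell 1.60-fold, and the repressor SKIL rose 2.14-fold without a call against V3. Of 21 Hippo targets 7 rose (33.3%) and 2 fell (9.52%), 6 and 2 clear (median 0.14). AMOTL2 read 10.47 and 10.45 in clone 1 against 9.08 to 9.25 (2.47-fold), whereas its relative AMOTL1 read 4.95 and 5.16 against 7.20 to 7.69. The kinase LATS2 rose 2.03-fold. Of this list 6 genes were above clone 5 and 1 below, where 2.35% and 0.673% of all genes were.

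Of 15 ERBB receptors and ligands 6 rose and none fell, 5 clear, although the median was 0.00. HBEGF, a ligand of EGFR, read 9.01 and 8.88 in clone 1, 6.75 and 6.88 in V3, 7.19 in V1 and 7.17 on average in clone 5 (3.84-fold). EREG, another ligand, read 5.82 and 5.68 in clone 1, 3.46 and 3.99 in V3 and 4.74 in V1 (2.86-fold). The receptors ERBB3 and ERBB2 rose 2.51-fold and 1.87-fold and the feedback inhibitor ERRFI1 2.07-fold. By probe set, 2 of 4 were called for HBEGF, 1 of 2 for EREG, 2 of 5 for ERBB3 and 1 of 3 for ERBB2. The vector arrays of ERBB3 read 3.58 to 4.04, at the floor, as did V3 in EREG. Of 37 Wnt genes 8 rose (21.6%) and 3 fell (8.11%; median 0.07), of which DACT2, LRP6 and ROR1 were clear. The co-receptor LRP6 rose 2.25-fold at 1 of 3 probe sets, and the receptor ROR1 read 6.85 and 6.70 in clone 1 against 7.86 to 8.43 (2.72-fold lower). FZD2 rose 1.77-fold without a call against V3 and FZD7 1.69-fold without a call against V1.

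Of 48 guidance cues and receptors 10 rose (20.8%) and 6 fell (12.5%; median -0.03). Netrin NTN1 read 4.70 and 4.62 in clone 1, 7.47 and 7.37 in V3 and 6.01 in V1 (4.15-fold lower), and its receptor UNC5C read 7.62 and 7.52 against 6.04 to 6.35 (2.63-fold higher). The ligand was thus lower and the receptor higher, and the differences from clone 5, 0.35 and 0.15, were not called. PLXNA1, a semaphorin receptor, rose 2.63-fold and was 0.85 above clone 5, and EPHA7 rose 2.18-fold without a call against V3. Of 17 RAB27 and secretion effector genes RAB27B, RAB3B, SYTL1 and MLPH rose and EXPH5 fell (median 0.07). RAB3B rose 1.68-fold, the effector SYTL1 1.59-fold and MLPH 1.26-fold, none of them clear, while EXPH5 fell 1.72-fold at 1 of 3 probe sets.

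Of 18 other S100 genes S100A3 fell 1.87-fold, with 6.48 and 6.25 in clone 1, 6.50 and 6.95 in V3 and 7.82 in V1, and none rose (median -0.05). Of 10 genes listed for links to S100P 2 rose. IQGAP1 read 11.63 and 11.63 in clone 1, 11.24 and 11.40 in V3 and 11.09 in V1 (1.34-fold higher). It was called at 1 of 3 probe sets, and the lowest of them differed by -0.14. Cathepsin D (CTSD) rose 1.72-fold. Neither gene was called against V3. AGER and EZR were not called. Of 16 genes used by nearly all cells TFRC, the transferrin receptor, read 11.43 and 11.41 in clone 1, 12.61 and 12.54 in V3 and 12.36 in V1 (2.07-fold lower), TUBB fell 1.30-fold, and the other 14 were not called (median -0.02).

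**Figure D5:**
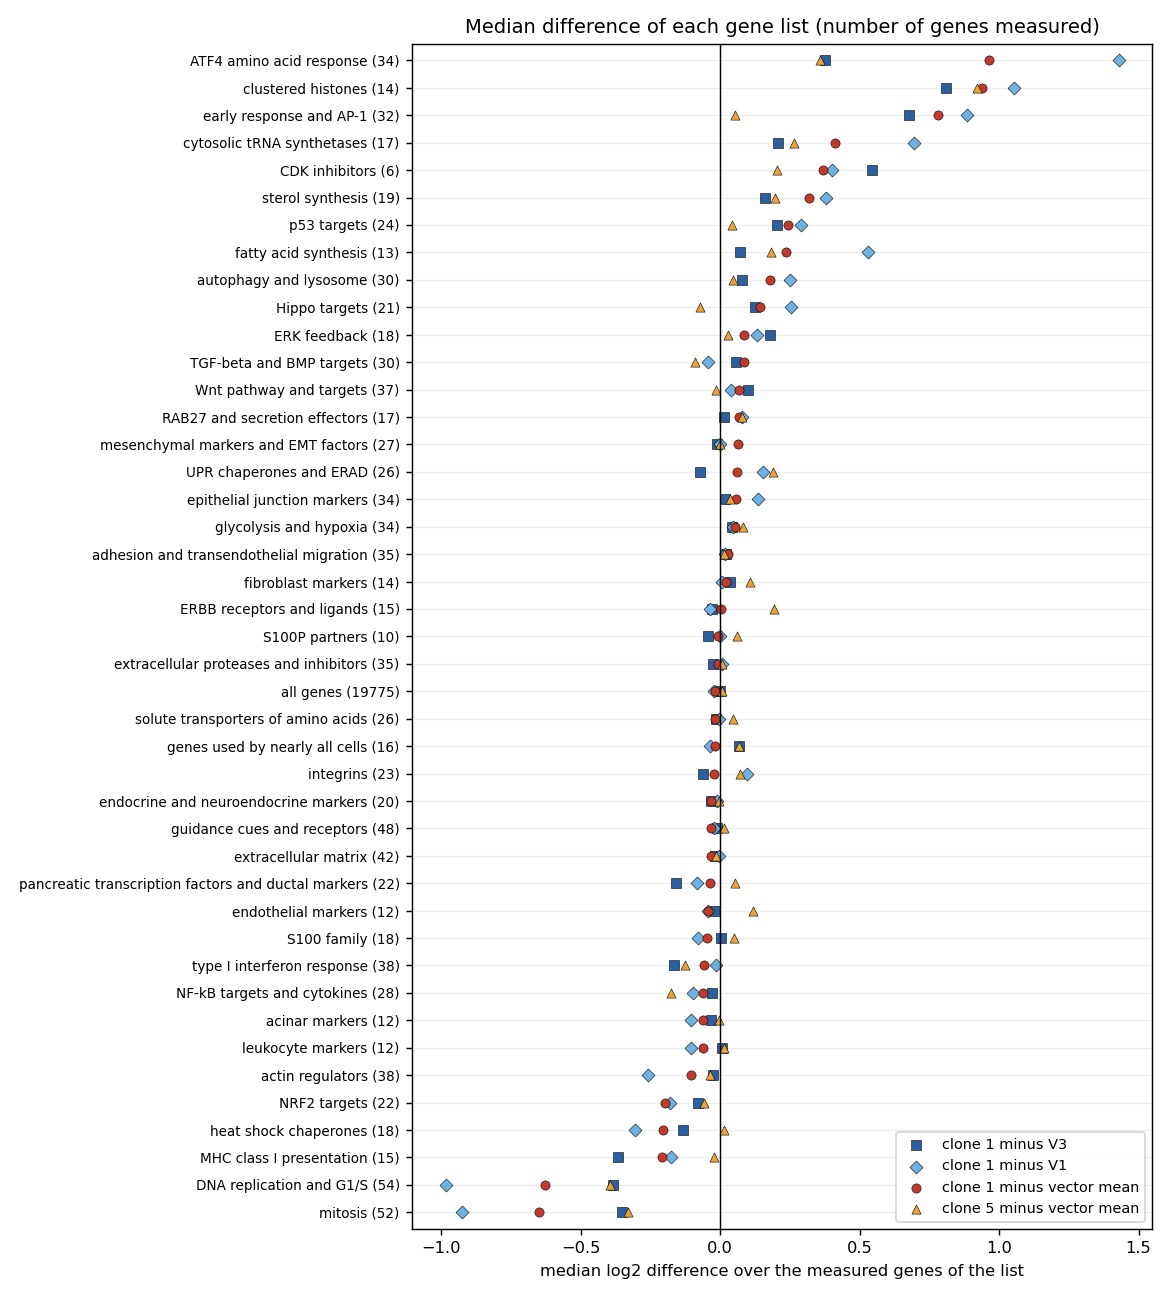
Median log2 difference of each gene list described here (rows, with the number of genes measured) for clone 1 minus the vector mean, V3 and V1, and clone 5 minus the vector mean. The ATF4 list (0.96), histones (0.94) and early response genes (0.78) lie highest and mitosis (-0.65) and replication (-0.63) lowest, and in the ATF4, mitosis and replication lists the V1 and V3 points lie apart.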

How the data were processed

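Total RNA of 7 Panc1 clone samples was measured on Affymetrix HG-U133 Plus 2.0 arrays, and the authors deposited log2 values. RMA is named in the submitters' processing notes, its version is not given in the sources used here. Of 54613 probe sets, 41091 have 1 gene symbol, 1801 several and 11721 none. The brightest probe set of a symbol represented 19775 genes. One limma model (limma 3.58.1, R 4.3.3) with the 4 clones as groups was fitted to all 7 arrays without a block, with contrasts of clone 1 against the equally weighted V3 and V1, each of these, and clone 5. P-values were adjusted by Benjamini-Hochberg over all probe sets and called under 0.05. The script was tested on simulated data. Tables and figures used Python 3.11.15, pandas 2.3.3 and matplotlib 3.10.9.

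Genes and lists were chosen with earlier results of these data known. Named were S100P, the 20 largest clear changes each way with the brighter side at 6 or more, the 10 each way also called against clone 5, and up to 5 called members per list (2 where none was called). Further members are printed as examples or because they were not called, and these and the COL1A1 probe sets were chosen after their values were seen. The array number limits precision, and read depth does not apply. Alternatives were leaving out arrays or a vector clone, the letter as a block, 5 arrays, another variance prior, a brightness filter, centring, quantile normalization, equal weights, the gene median and stricter thresholds. Array letters did not pair the samples (r of a minus b 0.05, -0.08 and 0.06). One gene list is not reported here.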

Additional observations from a re-analysis of the deposited data

Results flagged for a closer look

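The genes chosen by the naming rule whose log2 level differed between clone 1 and clone 5 (limma, adjusted p under 0.05 over all probe sets) are collected here with clone 1 minus clone 5 values. Both are clones of the S100P plasmid, and the calls were lost when any 1 array of clone 1, clone 5 or V3 was left out. No explanation was tested.

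Clone 1 was higher in ATF3 by 3.08, CREB5 by 2.63, MAFF by 2.20, ARFGEF3 by 2.10, SLITRK6 by 2.05, CXCR4 by 2.04, RAB39B by 1.92, EDN1 by 1.90, FILIP1L by 1.88, EGR1 by 1.84, GADD45A by 1.83, ARL14 by 1.83, HBEGF by 1.78, DUSP5 by 1.67, TSC22D3 by 1.57 and CCN2 by 1.51. Smaller positive differences were AMOTL2 (1.37), MYLK (1.33), SESN2 (1.33), ID3 (1.26), LAMP3 (1.25), RAB27B (1.24), ERN1 (1.23), SASH1 (1.19), NUPR1 (1.17), ERBB3 (1.13), SLC7A11 (1.03), ADM (1.02), DSG2 (1.01) and CLDN1 (1.00). The positive differences under 1 were ULK1 (0.98), DUSP6 (0.95), CDKN1C (0.94), DDIT4 (0.91), H2BC21 (0.89), MAP1LC3B (0.86), PLXNA1 (0.85), HERPUD1 (0.83), FOXP1 (0.81), SKIL (0.79), LIF (0.78), VEGFA (0.78), SPRY2 (0.78), SLC1A4 (0.77), CTH (0.76), TNFRSF10B (0.75), TGFBR2 (0.72), DOCK3 (0.70), SLC3A2 (0.58), ERRFI1 (0.56), DSC2 (0.55) and STARD4 (0.48). Probe sets other than the brightest of their gene were higher by 3.61 (COL1A1), 3.07 (COL1A1), 2.53 (DUSP8), 1.35 (FMN2), 0.99 (FMN2), 0.92 (RBM47).

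Clone 1 was lower than clone 5 in GLUL (-2.39), ABCG2 (-2.17), DOCK4 (-1.89), NES (-1.50), SCML1 (-1.43), KRT19 (-1.32), AMOTL1 (-1.20), MDFIC (-1.16), KRT8 (-1.15), NTS (-1.14), PIK3R1 (-1.13), ZNF512 (-1.08), IFIT1 (-0.91), TGFBR3 (-0.89), CDC25A (-0.84), KIF20A (-0.84), SPARC (-0.71), COL4A5 (-0.70), HSPA1L (-0.63), PSMB9 (-0.61), MCM3 (-0.61) and TFRC (-0.49).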

How the results depend on the processing

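Among 198 named called genes, 1 changed sign without V1 and 2 without V3, and none in the other alternatives. TM7SF2 read -0.27 without V1, and NEU1 and NTS read 0.11 and 0.48 without V3. Calls were lost in 107 and 102 genes without clone 1 array a or b, in 37 without V1, in 29 without V3 and in 0 to 35 under each other setting. Leaving out 1 array in turn gave 772 to 5106 called probe sets against the vector mean, 271 to 2253 against V3, 1107 to 5697 against V1 and 108 to 780 clear genes. Against clone 5 it gave 0 to 0 by limma, with 4468 to 11537 at an unadjusted p under 0.05. These fits have 2 residual degrees of freedom in place of 3, and a lone array was assumed to vary like the other groups. Without V1 4114 probe sets were called. The 5 arrays alone gave 2253 against V3 and 780 clear genes. Against clone 5 a brightness filter gave 2845 and centring 1813. An adjusted p of 0.01 gave 3389 (vector mean), 1850 (V3), 3325 (V1), 226 (clone 5) and 586 (clear), and a 2-fold minimum 1165, 999, 2165, 272 and 309. Quantile normalization moved the share of higher calls from 64.3% to 54.75%. S100P gave 0.045 without V1, 0.44 with equal weights (adjusted p = 0.0648), 0.6375 on 5 arrays (adjusted p = 0.0721) and 0.5493 to 0.7257 with 1 array left out, and lost its call in these except with 1 V3 array left out. With the letter as a replicate block, which shares only a letter, 7052, 4254, 7320 and 1275 probe sets and 1363 genes were called. The 3′ minus 5′ difference was 0.1846 to 0.2693 for ACTB and -0.0353 to 0.031 for GAPDH, which turned sign without V1 (-0.0353) and without clone 1 array b (-0.0004). The cause of these changes was not tested. Low signal limits genes near the array median of about 4.51 to 4.58, where folds are compressed.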
